A study of Mus musculus with 7 samples.

Results

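Flavin-containing monooxygenases, the Fmo genes, were examined in liver RNA of mice fed CDAHFD, a high-fat diet deficient in choline and with free amino acids in place of protein, used to bring on steatohepatitis. The members were *Fmo1*, *Fmo2*, *Fmo4* and *Fmo5*, chosen by gene symbol, 4 of the 23347 genes in the table, and all 4 passed the filter on low counts. None of the 4 was called different between the genotypes. The table held 4 livers of *B4galt1* flox/flox mice, which carry *B4galt1* between recombination sites and were labelled WT, and 3 livers labelled *B4galt1* hep−/−. The latter mice carry the same flox/flox alleles and in addition Alb-Cre, a Cre recombinase that the albumin promoter drives. The study describes the knockout as specific to hepatocytes, so the other cells of the liver are not its intended target. Per the study's methods, the mice were male littermates on a C57BL/6 background, 6 to 8 weeks old at the start, and every mouse analysed here received CDAHFD for 15 weeks, with 1 library per mouse. Livers of chow-fed mice were not analysed here, so no effect of the diet itself can be given.

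Fmo proteins sit in the membrane of the endoplasmic reticulum and bind FAD. They take electrons from NADPH, form a stable peroxide of the flavin with oxygen, and pass 1 oxygen atom to nitrogen or sulphur atoms of drugs, foreign compounds and metabolites. They stand beside the cytochromes P450 in this work but need no separate reductase. *Fmo1* encodes a broad-range enzyme that also turns hypotaurine into taurine, *Fmo2* an enzyme best known from the lung, and *Fmo4* the least studied of these proteins. *Fmo5* encodes an unusual member that inserts oxygen next to carbonyl groups and acts poorly on the classical substrates.

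*Fmo4*, *Fmo1* and *Fmo2* lie side by side on chromosome 1 in the RefSeq annotation of GRCm38.p6, between *Prrc2c* and *Fmo6*, while *Fmo5* lies on chromosome 3 between *Chd1l* and *Prkab2*. In the GENCODE M21 annotation of GRCm38, each member had 8 coding exons and between 532 and 560 codons. The stretch that encodes the FAD-binding glycine motif is shown because it is what the 4 proteins share at their start. It was found by reading each coding sequence in frame, on the coding strand, for 3 glycine codons (GGN) with 1 free codon between the first and the second and 2 free codons between the second and the third, and the capitals mark the match. It lay at codons 9 to 14 of *Fmo1*, *Fmo2* and *Fmo4* and at codons 10 to 15 of *Fmo5*, in exon 2 of *Fmo1*, *Fmo2* and *Fmo5* and in exon 3 of *Fmo4*. Of 21504 mouse coding sequences, 2.13% held such a match within the first 20 codons.
Fmo1: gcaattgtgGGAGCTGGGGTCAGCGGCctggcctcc
Fmo2: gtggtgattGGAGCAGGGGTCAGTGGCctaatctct
Fmo4: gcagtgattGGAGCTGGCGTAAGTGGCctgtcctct
Fmo5: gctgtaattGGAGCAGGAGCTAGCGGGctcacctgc

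The FMO-identifying signature, which follows further along the protein and is the mark by which the family is recognized, is shown next with the match in capitals. It lay at codons 166 to 176 of *Fmo1*, *Fmo2* and *Fmo4* and at codons 167 to 177 of *Fmo5*, and 0.228% of the coding sequences held it anywhere in frame.
Fmo1: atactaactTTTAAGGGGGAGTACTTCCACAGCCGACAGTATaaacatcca
Fmo2: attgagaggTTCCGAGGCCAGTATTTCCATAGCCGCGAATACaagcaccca
Fmo4: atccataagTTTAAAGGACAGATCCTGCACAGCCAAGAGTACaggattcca
Fmo5: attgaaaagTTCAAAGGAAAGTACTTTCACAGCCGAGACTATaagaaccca

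A second copy of the glycine motif, in the part of the protein that binds NADPH, was found in *Fmo1*, *Fmo4* and *Fmo5*. The search found no in-frame match there in *Fmo2*, which says only that this arrangement of codons occurs once in its coding sequence.
Fmo1: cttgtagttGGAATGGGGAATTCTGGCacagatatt
Fmo4: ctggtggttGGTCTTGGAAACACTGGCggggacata
Fmo5: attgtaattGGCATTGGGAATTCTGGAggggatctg

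The members' coding sequences were between 57.6% and 61.5% identical to each other when aligned in pairs. The longest stretch that any 2 of them shared letter for letter was 24 bases, in *Fmo1* and *Fmo5*, as shown here.
Fmo1 and Fmo5: catcaagtgctgcctggaagaggg
No exon of a member overlapped an exon of another gene in the GENCODE annotation. In the RefSeq annotation, the span of *Fmo5* overlapped that of *Chd1l*, and whether the counting used strand is not given in the sources used here.

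Total counts ranged from 37838654 to 39668509 in flox/flox livers and from 30608271 to 34586588 in livers labelled hep−/−, so each member rested on at least 331 counts in every liver. CPM stands for each gene's counts scaled to a common library total, here with TMM factors between libraries. *B4galt1*, the targeted gene, gave between 48.7 and 53.0 CPM in flox/flox livers. It gave 28.4, 23.9 and 53.7 CPM in replicates 1 to 3 labelled hep−/−, so in *B4galt1* the library labelled hep−/− replicate 3 went against its label. In *Sult2a1*, a sulfotransferase that reached at most 0.803 CPM in flox/flox livers, that library lay with its group, at 33.9 CPM. It also did so in summed pericentral hepatocyte markers, at 6954 CPM against at least 11572 CPM in flox/flox livers. *Sult2a1* and 6 of the 10 pericentral markers were called different with this liver included. In summed periportal hepatocyte markers it lay within the flox/flox range, at 13306 CPM against 11575 to 14209 CPM. Replicates 1 and 2 of its group had 9847 and 7872 CPM of these. The log2 fold change of *B4galt1* was −0.52 (adjusted p = 0.181). Mitochondrially encoded transcripts took between 3.88% and 8.0% of the counts in flox/flox livers and between 14.4% and 22.6% in the others. Hepatocyte markers named the tissue as liver, with *Alb* (albumin) between 57197 and 112935 CPM in every liver.

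Levels of different genes were compared per length, as FPKM. In the deposited FPKM the order was, in each of the 7 livers, *Fmo5*, *Fmo1*, *Fmo2* and *Fmo4*. Mean FPKM in flox/flox livers was 119 ± 53.1 for *Fmo5*, 62.2 ± 13.2 for *Fmo1*, 21.0 ± 10.4 for *Fmo2* and 2.87 ± 0.659 for *Fmo4* (SD, n = 4). In livers labelled hep−/− it was 95.1 ± 28.4, 49.8 ± 5.96, 27.8 ± 15.3 and 3.43 ± 0.260 in the same order (SD, n = 3). FPKM rests on the library total, without TMM factors, and mitochondrially encoded transcripts took a larger part of that total in livers labelled hep−/−. Each member is compared between the genotypes in CPM with TMM factors below. *Fmo5* exceeded *Fmo1* between 1.55-fold and 2.45-fold within a liver, though the lowest *Fmo5* of flox/flox livers, 79.6 FPKM, lay under their highest *Fmo1*, 80.8 FPKM. The step from *Fmo1* to *Fmo2* was between 1.10-fold and 4.02-fold, smallest in replicate 2 labelled hep−/−, and that from *Fmo2* to *Fmo4* was between 4.05-fold and 19.0-fold. The gene length behind the FPKM of *Fmo5* was 8.21 kb and those of the other members lay between 3.47 and 4.45 kb. These are not the exonic lengths of the GENCODE annotation, which were 5.68 kb for *Fmo5*, 6.30 kb for *Fmo1*, 5.61 kb for *Fmo2* and 3.71 kb for *Fmo4*. With the latter, a choice made after seeing the data, the order held in 6 of 7 livers, *Fmo2* stood above *Fmo1* in replicate 2 labelled hep−/−, and *Fmo5* exceeded *Fmo1* between 4.08-fold and 6.43-fold. The order of *Fmo1* and *Fmo2* in that liver and the size of each step thus depend on the lengths used. *Fmo6*, a further family gene that did not pass the filter, had between 0 and 2 counts in every liver, at or under the floor of 3 counts.

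**Figure D1:**
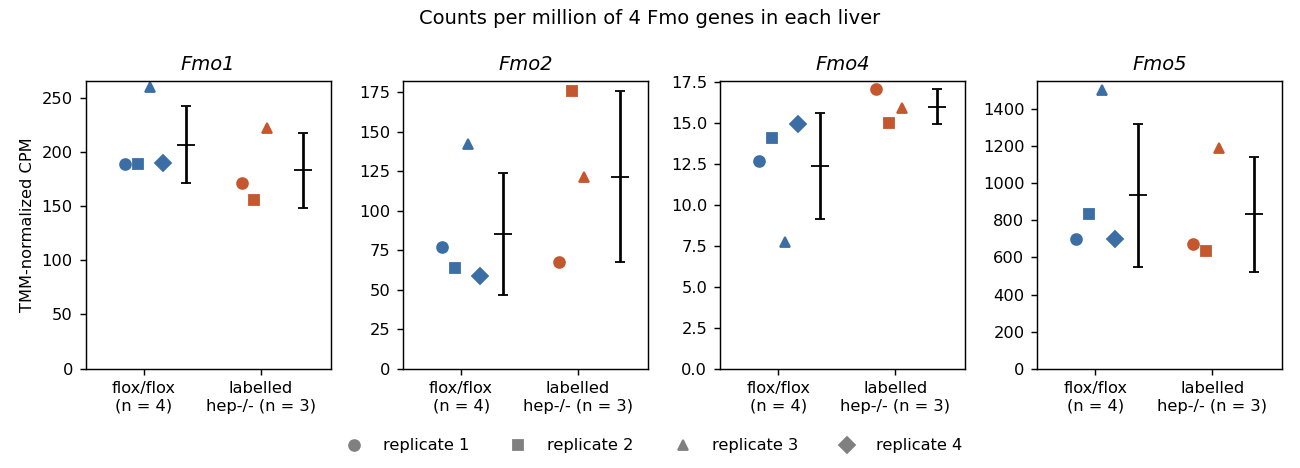
TMM-normalized CPM (vertical axis, from 0) of *Fmo1*, *Fmo2*, *Fmo4* and *Fmo5* in each liver, with the symbol giving the replicate number, flox/flox in blue and labelled hep−/− in orange, and the black bar the mean with its SD. Replicate 3 of the flox/flox group had the highest *Fmo1*, *Fmo2* and *Fmo5* and the lowest *Fmo4* of its group.

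*Fmo1* (NCBI gene 14261) gave 188, 189, 259.7 and 190.1 CPM in flox/flox replicates 1 to 4 and 171, 156 and 222 CPM in replicates 1 to 3 labelled hep−/−. The groups overlapped, and replicate 3 was the highest of each group. The means were 207 ± 35.3 CPM (SD, n = 4) and 183 ± 34.8 CPM (SD, n = 3), a log2 fold change of −0.18 (standard error 0.21, 95% confidence interval −0.64 to 0.28, edgeR adjusted p = 0.594, quasi-likelihood fit with Benjamini-Hochberg correction). The interval spans folds from 0.643 to 1.22.

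*Fmo2* (NCBI gene 55990) gave 77.1, 63.7, 142 and 58.6 CPM in flox/flox replicates 1 to 4 and 67.8, 176 and 122 CPM in replicates 1 to 3 labelled hep−/−. The groups overlapped, with 1 high liver among the flox/flox and 2 among those labelled hep−/−. The means were 85.4 ± 38.7 CPM (SD, n = 4) and 122 ± 54.0 CPM (SD, n = 3), a log2 fold change of 0.51 (standard error 0.35, 95% confidence interval −0.26 to 1.28, edgeR adjusted p = 0.339). Over the alternatives *Fmo2* had the widest range of the 4 members, from 0.15 without hep−/− replicate 2 to 0.87 without flox/flox replicate 3 (adjusted p = 0.0999 from the same test), and the value without hep−/− replicate 1 was 0.79.

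*Fmo4* (NCBI gene 226564) gave 12.7, 14.1, 7.75 and 14.97 CPM in flox/flox replicates 1 to 4 and 17.1, 15.02 and 15.9 CPM in replicates 1 to 3 labelled hep−/−. Flox/flox replicate 3 was the lowest liver, and the groups did not overlap on this scale, the gap between the nearest livers being 14.97 against 15.02 CPM. Groups without overlap were seen in 28.6% of all genes tested. With RLE factors, with upper-quartile factors and with TMM after mitochondrially encoded genes were left out, the groups did not overlap either. Divided by the library total alone, they overlapped (highest flox/flox 14.5, lowest labelled hep−/− 14.0 CPM), and so they did in FPKM, which rests on the same total. The means were 12.4 ± 3.22 CPM (SD, n = 4) and 16.0 ± 1.05 CPM (SD, n = 3), a log2 fold change of 0.37 (standard error 0.24, 95% confidence interval −0.14 to 0.89, edgeR adjusted p = 0.294). Leaving out flox/flox replicate 3 gave 0.20 (adjusted p = 0.504 from the same test).

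*Fmo5* (NCBI gene 14263) gave 701, 837, 1503 and 698 CPM in flox/flox replicates 1 to 4 and 675, 634 and 1189.8 CPM in replicates 1 to 3 labelled hep−/−. The groups overlapped, and replicate 3 stood above the rest of each group. The means were 935 ± 384 CPM (SD, n = 4) and 833 ± 309.8 CPM (SD, n = 3), a log2 fold change of −0.17 (standard error 0.33, 95% confidence interval −0.88 to 0.55, edgeR adjusted p = 0.753). The sign turned with 1 liver: without flox/flox replicate 3 the log2 fold change was 0.16 (adjusted p = 0.748), and without hep−/− replicate 3 it was −0.52 (adjusted p = 0.297, same test). Without hep−/− replicate 1 it was −0.05, and without hep−/− replicate 2 it was close to 0. Flox/flox replicate 3, on which the sign rested, also had the highest value of its group in 10 of 10 endothelial and 10 of 10 macrophage markers. Its summed endothelial markers came to 459 CPM, against 114 to 175 CPM in the other flox/flox livers and 183 to 221 CPM in livers labelled hep−/−. Its summed macrophage markers came to 3290 CPM, against 1374 to 2034 CPM in the other flox/flox livers. The part of these markers in the levels of *Fmo1*, *Fmo2*, *Fmo4* and *Fmo5* was not tested.

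Of all genes tested, 15.8% were called different, meaning that the adjusted p was below 0.05 and the log2 fold change exceeded 0.58 in size. Genes called lower in livers labelled hep−/− made up 7.83% and genes called higher 8%. None of the 4 members was called by edgeR, DESeq2 or limma, and none was called in any of 17 alternative settings. At an unadjusted p under 0.05, edgeR marked 32.9% of all genes and 0 of the 4 members, whose smallest p was 0.140, and DESeq2 and limma on FPKM likewise marked 0 of 4. When the CPM of 4 livers were compared with those of 3 by exact permutation (two-sided), p was 0.457 for *Fmo1*, 0.314 for *Fmo2*, 0.114 for *Fmo4* and 0.657 for *Fmo5*, where the smallest p this design allows is 0.0286. The intervals of *Fmo2*, *Fmo4* and *Fmo5* reach past a log2 fold change of 0.58 in size, as does that of *Fmo1* downward, so a change of that size in a member is not excluded by these livers. Without hep−/− replicate 3, whose *B4galt1* went against the label, *Fmo1* gave −0.35, *Fmo2* 0.50 and *Fmo4* 0.37, and *Fmo1* also moved to −0.07 without hep−/− replicate 2 and to −0.05 without flox/flox replicate 3.

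**Figure D2:**
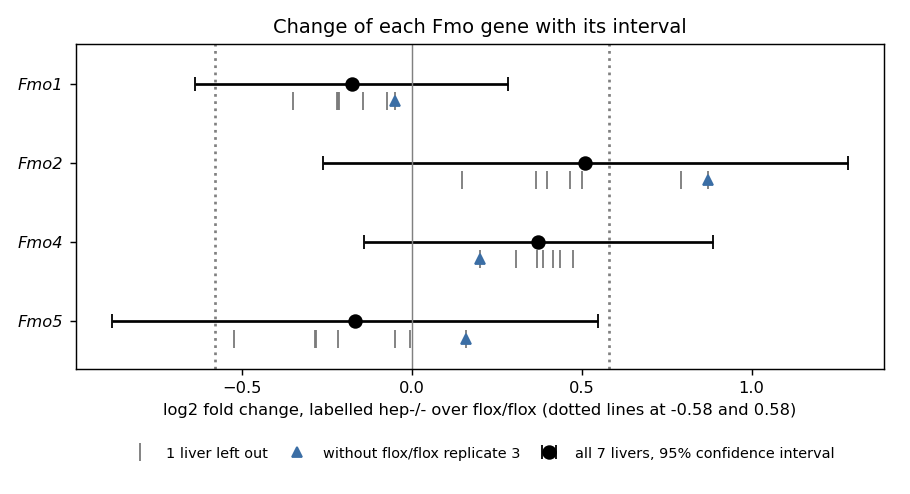
Log2 fold change of livers labelled hep−/− over flox/flox livers (horizontal axis) for each member, as a point with its 95% confidence interval, with grey ticks for the fits without 1 liver and a triangle for the fit without flox/flox replicate 3. Each interval crosses 0, and the *Fmo5* triangle, at 0.16, lies on the other side of 0 from its point, at −0.17.

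The members differed in how much they varied among livers of 1 genotype. The SD of log2 CPM within groups was 0.244 for *Fmo1*, 0.324 for *Fmo4*, 0.514 for *Fmo5* and 0.623 for *Fmo2*, against a median of 0.314 over all genes tested. *Fmo2* was thus more variable than 93.0% of genes and *Fmo5* more than 86.6%, while *Fmo1* exceeded 29.8%. *Fmo1* and *Fmo5*, which lie on different chromosomes, ran in parallel over the 7 livers, with Pearson's r = 0.948 on log2 CPM (permutation p = 0.000794, adjusted 0.00476 over 6 pairs of members) and Spearman's rho = 0.893 (permutation p = 0.0123, adjusted 0.0738, short of the threshold). After flox/flox replicate 3 and hep−/− replicate 2, the 2 livers farthest from the median of *Fmo1*, were left out, r was 0.905. With group means removed r was 0.973, and with 4 and 3 livers no correlation within a group was computed. The other 5 pairs gave r between −0.729 and 0.405 with adjusted permutation p between 0.184 and 0.676. Without the same 2 livers, r was 0.800 in place of 0.194 for *Fmo1* and *Fmo2* and 0.848 in place of 0.405 for *Fmo2* and *Fmo5*, and it was −0.06 in place of −0.729 for *Fmo1* and *Fmo4*, so *Fmo1* and *Fmo5* did not stand clearly apart from those first pairs in the remaining 5 livers. In both groups the liver with the highest *Fmo5*, replicate 3, also had the lowest share of mitochondrially encoded counts of its group, 3.88% and 14.4%, and the part of this in the relation was not tested.

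**Figure D3:**
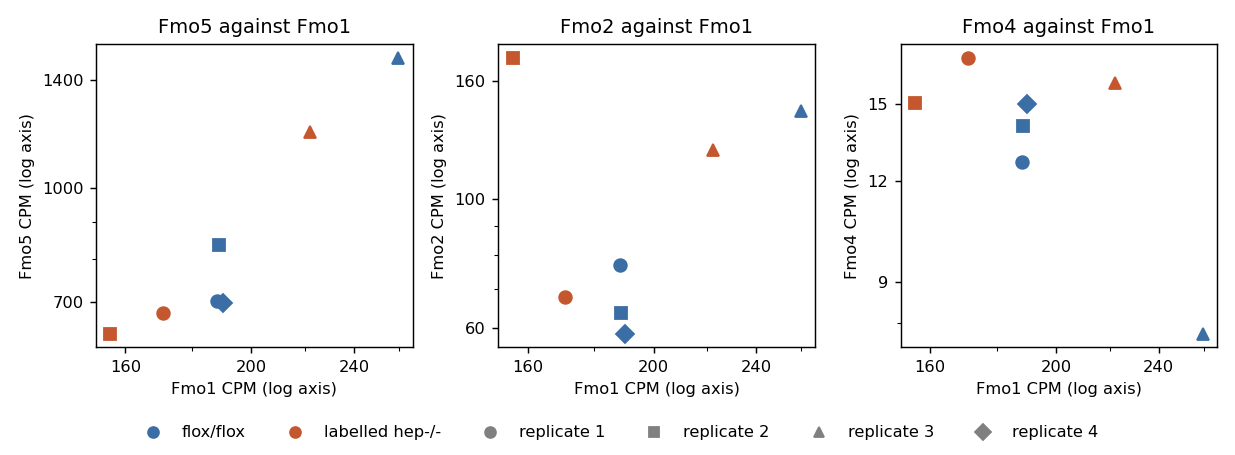
TMM-normalized CPM of *Fmo5*, *Fmo2* and *Fmo4* (vertical log axes) against that of *Fmo1* (horizontal log axis), 1 symbol per liver, blue for flox/flox and orange for labelled hep−/−, with the symbol giving the replicate number. *Fmo5* climbs with *Fmo1* over the 7 livers (r = 0.948), while hep−/− replicate 2 joins the lowest *Fmo1* to the highest *Fmo2*.

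The relative make-up of the family was examined as each member's share of the summed FPKM of the 4. That sum was 183, 175, 316 and 147 FPKM in flox/flox replicates 1 to 4 and 137, 180.3 and 212 FPKM in replicates 1 to 3 labelled hep−/−, with overlap. The sum, unlike the shares, depends on the scaling between libraries, and FPKM has no TMM factors. *Fmo5* took 57.1% ± 4.27 in flox/flox livers (SD, n = 4) and 53.7% ± 6.92 in livers labelled hep−/− (SD, n = 3, exact permutation p = 0.514). *Fmo1* took 31.4% ± 4.18 and 28.7% ± 3.37 (exact permutation p = 0.400), and *Fmo4* 1.58% ± 0.679 and 2.02% ± 0.530 (exact permutation p = 0.486). The share of *Fmo2* was 9.93% ± 1.53 and 15.6% ± 7.82 (exact permutation p = 0.114). Replicate 2 labelled hep−/− set the latter, with 24.6%, where the other livers of its group had 10.4% and 11.7%. Without it the difference between the groups in the share of *Fmo2* went from 5.67 to 1.17 percentage points, and that in the share of *Fmo5* from −3.45 to 0.18. The shares themselves depend on the gene lengths. With GENCODE exonic lengths *Fmo5* took 75.4% ± 3.19 and 71.8% ± 6.29, *Fmo1* 15.9% ± 2.56 and 14.7% ± 1.84, *Fmo2* 6.95% ± 1.05 and 11.2% ± 6.09, and *Fmo4* 1.75% ± 0.777 and 2.26% ± 0.631 in flox/flox livers (SD, n = 4) and in those labelled hep−/− (SD, n = 3). Ratios of 2 members within a library, which no scaling between libraries touches, were compared for all 6 pairs. With all 7 livers the largest difference was that of *Fmo1* over *Fmo2*, a log2 ratio of 1.36 ± 0.367 in flox/flox livers (SD, n = 4) and 0.677 ± 0.773 in livers labelled hep−/− (SD, n = 3), with an exact permutation p of 0.200. That difference, −0.68, shrank to −0.25 without hep−/− replicate 2, smaller in size than the −0.53 that *Fmo1* over *Fmo4* then gave. The adjusted p over the 6 pairs lay between 0.457 and 0.914 (exact permutation tests), so no pair of members was shown to change by different amounts.

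**Figure D4:**
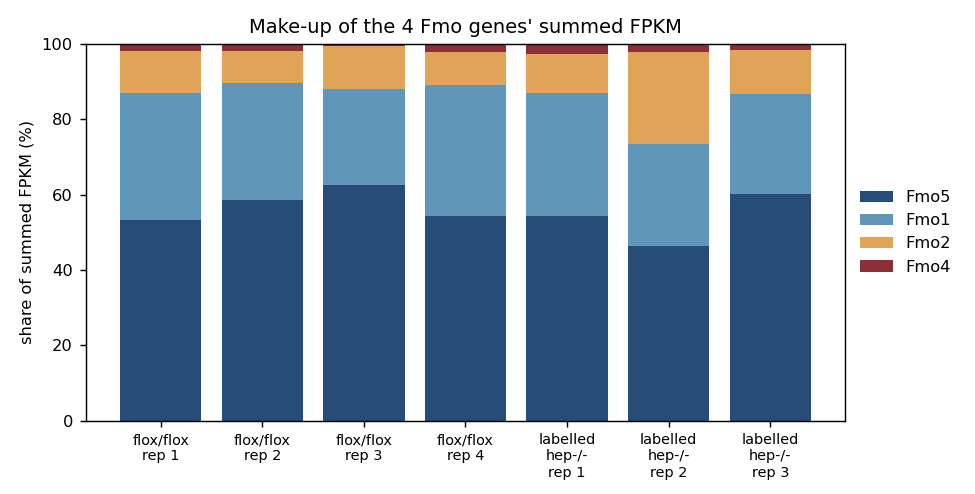
Share of the summed FPKM (vertical axis, percent) that *Fmo5*, *Fmo1*, *Fmo2* and *Fmo4* took in each of the 7 livers. *Fmo5* held the largest part in every liver, and *Fmo2* reached 24.6% in replicate 2 labelled hep−/−.

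The genes whose pattern over the 7 livers was most like that of each member were taken from 7491 genes at or above the median level. For *Fmo1* they were *Dusp16* (r = 0.973), *Msrb3* (r = 0.969) and *Zfp148* (r = 0.968), and for *Fmo2* they were *Fbxo31* (r = 0.988), *Iqsec2* (r = 0.984) and *Slf2* (r = 0.981). For *Fmo4* they were *Mrps11* (r = 0.986), *Wdr43* (r = 0.971) and *Dynlrb1* (r = 0.968), and for *Fmo5* they included *Atp11b* (r = 0.990) and *Sos1* (r = 0.977). With group means removed these correlations lay between 0.956 and 0.996. They describe the best of many genes over 7 livers, and none of these 11 genes was called different between the genotypes.

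Genes that supply the flavin or that carry electrons from NADPH or NADH beside the Fmo proteins were counted next. Of 12 tested, 2 were called lower and 0 higher (16.7%, near the 15.8% of all genes tested), with a median log2 fold change of −0.20 against 0.02 over all genes. *Cyb5b*, an outer mitochondrial membrane cytochrome b5, fell from 151 ± 25.4 to 67.4 ± 20.1 CPM, a log2 fold change of −1.17 (adjusted p = 0.0118), and *Txnrd1*, the flavoprotein thioredoxin reductase of the cytosol, gave −0.73 (adjusted p = 0.0449). *Por*, which passes electrons from NADPH to the cytochromes P450, was not called, at 573 ± 108 CPM in flox/flox livers and 452 ± 120 CPM in livers labelled hep−/−. Of this list, 1 gene was called without flox/flox replicate 2, 3 or 4 or without hep−/− replicate 2 or 3, and 3 without hep−/− replicate 1.

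Of 11 tested oxidases and dehydrogenases that act on amines, aldehydes or kynurenine with a flavin or molybdenum cofactor, 2 were called lower and 0 higher (18.2%, also near that background), with a median of −0.45. They were *Aox3*, an aldehyde oxidase, with a log2 fold change of −1.19 (183 ± 16.0 against 80.2 ± 14.3 CPM, adjusted p = 0.00543), and *Sardh*, sarcosine dehydrogenase, with −0.73 (adjusted p = 0.0400). *Kmo*, a flavin monooxygenase of the kynurenine pathway outside the Fmo family, gave −0.08 (adjusted p = 0.839), and *Maob*, monoamine oxidase B, −0.48 (adjusted p = 0.224). When any 1 of flox/flox replicates 1 to 4 or hep−/− replicates 1 and 2 was left out, 1 gene of this list was called, and when hep−/− replicate 3 was left out, 3 were.

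Around taurine, to which the *Fmo1* enzyme contributes, 1 of 7 tested genes was called lower and 0 higher (14.3%, near the background), with a median of −0.45. It was *Slc6a6*, the taurine transporter, at 102 ± 23.1 CPM in flox/flox livers and 45.3 ± 8.32 CPM in the others (log2 fold change −1.17, adjusted p = 0.00946). *Cdo1*, which oxidizes cysteine on the way to hypotaurine, gave 0.55 (adjusted p = 0.180), and *Csad*, which makes hypotaurine from cysteine sulphinate, −0.25 (adjusted p = 0.321). Without hep−/− replicate 3, 2 genes of the list were called.

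Among genes of the aryl hydrocarbon receptor, a sensor of foreign compounds, 1 of 8 tested was called lower and 1 higher. *Ugt1a6a*, a glucuronosyltransferase whose exons are shared within its locus so that its counts are uncertain, gave −3.51 (adjusted p = 0.00461), and *Tiparp*, a feedback inhibitor of the receptor, 0.72 (adjusted p = 0.0426). *Ahr*, the receptor itself, gave −0.18 (adjusted p = 0.555) and *Cyp1a2*, a P450 target, −0.81 (adjusted p = 0.0766). The median of the list was −0.23, and 25.0% of it was called, 2 of 8 genes against 15.8% of all genes tested. *Tiparp* was not called without flox/flox replicate 1, 2 or 4 or hep−/− replicate 1, 2 or 3, which left 1 gene of the list, *Ugt1a6a*, except without hep−/− replicate 3. There 2 genes were called lower and 0 higher, *Cyp1a2* being the added one (−1.14, adjusted p = 0.0320), and the fit without a filter and limma on FPKM also gave 2 lower and 0 higher. Of 9 genes of the bile acid receptor, 2 were called lower and 0 higher (22.2%, against the same 15.8%), with a median of 0.19. *Cyp8b1*, the sterol 12-alpha-hydroxylase, gave −1.73 (adjusted p = 0.0145) and *Slc10a1*, the bile acid uptake carrier, −0.97 (adjusted p = 0.0422). *Nr1h4*, the receptor, gave 0.29 (adjusted p = 0.397), *Nr0b2*, its repressor target, 0.45 (adjusted p = 0.612) and *Cyp7a1*, the rate-limiting enzyme of bile acid synthesis, −1.53 (adjusted p = 0.0914). Leaving out flox/flox replicate 1, 2, 3 or 4 or hep−/− replicate 1 or 2 left 1 gene called, and leaving out hep−/− replicate 3 gave 3.

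Genes that differ between male and female mouse liver were counted because drug-metabolizing enzymes often do, and all mice here were male. Of 12 female-biased genes tested, 7 were called higher and 0 lower in livers labelled hep−/− (58.3%, where 8% of all genes were called higher), with a median log2 fold change of 1.65. They included the sulfotransferases *Sult2a1* (0.348 ± 0.340 against 21.2 ± 11.2 CPM) and *Sult2a2* (2.66 ± 3.05 against 56.0 ± 22.1 CPM) and the cytochromes P450 *Cyp2b13* (0.585 ± 0.385 against 15.4 ± 4.15 CPM) and *Cyp2a4* (23.7 ± 11.6 against 191 ± 79.6 CPM). Of 15 male-biased genes tested, 9 were called lower and 0 higher (60%, where 7.83% of all genes were called lower), with a median of −1.46. They included the transporter *Slco1a1* (−3.54), the glucuronosyltransferase *Ugt2b38* (−3.40), the major urinary protein *Mup7* (−3.34) and the fatty acid hydroxylase *Cyp4a12a* (−2.85). *Slco1a1* was 0.778 CPM in flox/flox replicate 2, under the 1.18 CPM of hep−/− replicate 3. Several of these genes have near-identical copies among which reads could be split, so their values are uncertain. Of the female-biased genes, 5 to 7 were called when 1 liver was left out, all of them higher except *Acot3*, an acyl-CoA thioesterase, without hep−/− replicate 1. It was then called lower, at −1.19 (adjusted p = 0.0224), against −0.54 (adjusted p = 0.299) with all livers, and is named here after its values were seen. Without flox/flox replicate 4 or without hep−/− replicate 1, 5 male-biased genes were called, and without hep−/− replicate 2, 6 were.

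Markers of the cells a liver sample can hold were counted beside the members, and in bulk liver fewer cells of a type and less RNA per cell cannot be told apart. Of 9 general hepatocyte markers and of 10 periportal markers, 0 were called (where 15.8% of all genes tested were), with medians of 0.12 and −0.35. *Cyp2f2*, a periportal P450, gave −0.65 (adjusted p = 0.147). Of 10 pericentral hepatocyte markers, 6 were called lower and 0 higher (60%, where 7.83% of all genes were called lower), with a median of −1.31. *Glul*, glutamine synthetase, gave −1.30, *Cyp2e1*, an ethanol-oxidizing P450, −1.32, *Rhbg*, an ammonia channel, −2.02, *Oat*, ornithine aminotransferase, −1.76, and *Slc1a2*, a glutamate transporter, −1.57. The summed pericentral markers ranged from 11572 to 13012 CPM in flox/flox livers and from 3344 to 6954 CPM in the others. Of 10 macrophage markers, 6 were called lower and 0 higher (60%, against the same 7.83%), with a median of −0.99. They included *Lyz2* (−2.15), *Adgre1* (−1.88), *Gpnmb* (−1.72) and *Ms4a7* (−1.31). The summed macrophage markers ranged from 1374 to 3290 CPM and from 623 to 756 CPM. Of 10 endothelial markers 1 was lower, *Kdr* (−1.33), and 1 higher, *Egfl7* (0.84), which is 20%, near the 15.8% of all genes tested. Flox/flox replicate 3 stood apart in this list, as given above. Of 10 stellate cell and fibroblast markers 1 was lower, *Lum* (−1.08), which is 10%, near the 7.83% of all genes called lower. Of 7 cholangiocyte markers 0 were called. Calls in the marker lists were not counted in the alternative settings. No tested marker was at 0 in any liver. The part of these marker shifts in the values of the members was not tested.

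**Figure D5:**
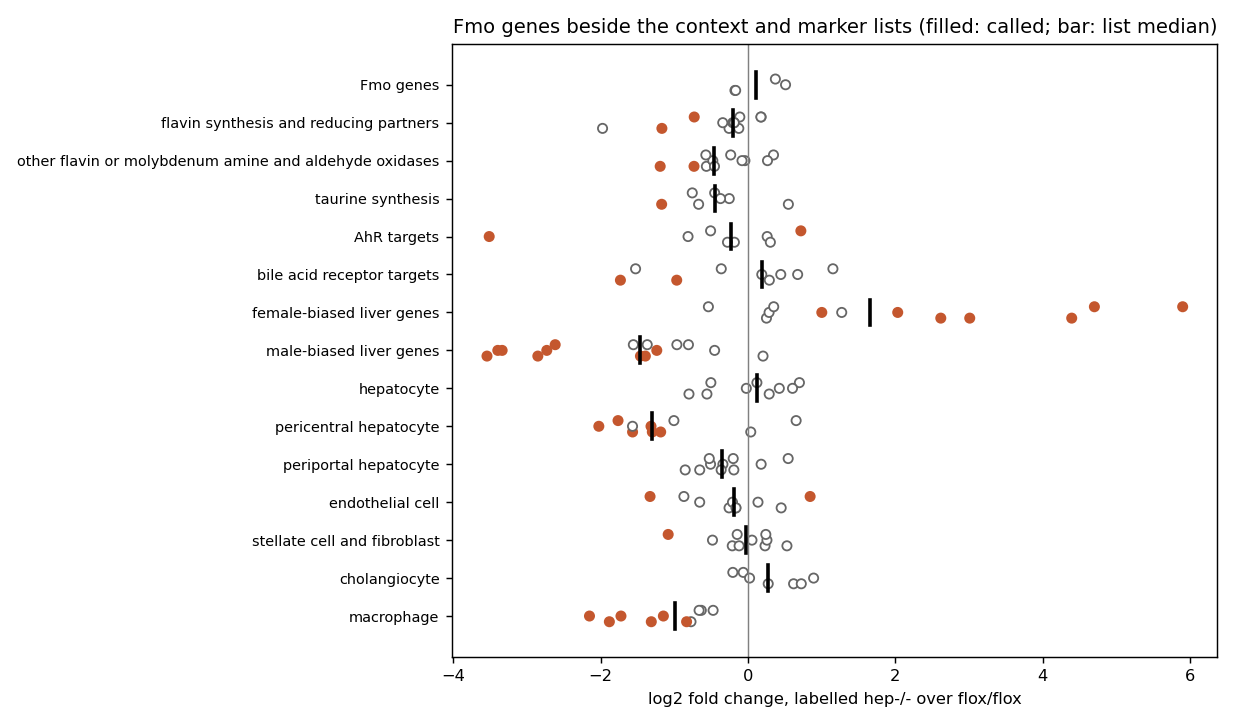
Log2 fold change of livers labelled hep−/− over flox/flox livers (horizontal axis) for the 4 members, the 7 lists of related genes and the 7 lists of cell markers, with 1 circle per tested gene, filled where called, and a bar at each list's median. The Fmo genes are all open and lie between −0.18 and 0.51, beside 9 filled male-biased and 7 filled female-biased genes.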

How the data were processed

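Liver RNA was extracted with TRIzol and made into libraries with the VAHTS Universal V6 kit. The authors deposited raw counts per gene and liver, and FPKM for the same genes, which equal the count divided by a gene length and by the library total (13374 genes checked, none off by over 1%). The submitters' processing notes name fastp, HISAT2, HTSeq, DESeq2, R 3.2.0 and GRCm39, without their roles, and the gene annotation and strand setting are not given in the sources used here. The reference used here is GRCm38, so no coordinates are printed. Coding sequences were built from GENCODE M21 transcripts.

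Genes passing filterByExpr (minimum count 10), 15179 of 23347, were tested with edgeR 4.0.16 (quasi-likelihood test, TMM) in R 4.3.3, with group as the sole term and Benjamini-Hochberg adjustment over all of them, and adjusted p-values in the text come from this test unless another is named. Calls needed an adjusted p below 0.05 together with a log2 fold change above 0.58 in size. DESeq2 1.42.0, limma 3.58.1 on log2 FPKM (pseudocount 1 or 0.1, genes reaching FPKM 1 in 3 libraries or more), other scalings and filters, and each liver left out were alternatives. A pseudocount understates the change of low genes. Single values were compared by two-sided exact permutation tests of 4 against 3 livers. Spread, the search for genes most like a member and the deviations of same-numbered livers used log2(CPM + 0.5). Correlations between members used log2 CPM without an offset. A floor of 3 counts was between 0.0756 and 0.0980 CPM, which covers counting error only, while the intervals of log2 fold changes come from the edgeR fit and include the spread between livers. No 2 libraries agreed within sampling noise (21 pairs compared), so each counted as 1 sample. That they are separate mice rests on the labels.

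The members and lists were chosen with earlier results of these data known. Named genes were the members, fixed anchor genes, at most the 4 largest called changes of each list, and the 3 genes most like each member. Some genes that these rules take are not reported here. The tests were checked on data with known changes first.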

Additional observations from a re-analysis of the deposited data

Results flagged for a closer look

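Among 56 sets of 4 flox/flox values examined, 7 had 1 liver far from the other 3 by Dixon's test at the 95% level, where chance alone gives about 1 in 20. *Fmo1* was 259.7 CPM in flox/flox replicate 3, against 188 to 190.1 CPM in the other livers of the group. In the same liver the log2 ratio of *Fmo1* over *Fmo4* was 5.07, against 3.67 to 3.89, and that of *Fmo4* over *Fmo5* was −7.60, against −5.89 to −5.54. Flox/flox replicate 3 was also high in *Ahr*, the aryl hydrocarbon receptor, at 55.8 CPM against 41.3 to 43.7 CPM. It was high in *Lum*, a fibroblast marker, at 145 CPM against 59.0 to 71.4 CPM, although it was the highest liver of the group in only 3 of the 10 stellate cell and fibroblast markers. It was high in *Adgre1*, a macrophage marker, at 71.3 CPM against 20.1 to 25.6 CPM. *Kmo* was low in flox/flox replicate 1, at 217 CPM against 286 to 293 CPM.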

How the results depend on the processing

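None of the 4 members was called in any of 17 alternatives. Their log2 fold changes ranged from −0.35 to −0.05 for *Fmo1*, from 0.15 to 0.87 for *Fmo2*, from 0.20 to 0.52 for *Fmo4* and from −0.52 to 0.16 for *Fmo5*. The sign of *Fmo5* turned to 0.16 without flox/flox replicate 3, the only reversal. Deviations of same-numbered livers from their group means correlated at −0.42, −0.10 and 0.09. For livers with different numbers the correlations lay between −0.29 and 0.56. With so few livers these values cannot exclude a pairing. With the replicate number as a block, 1267 genes were called in place of 2404, with 1 each in the flavin, other oxidase, aryl hydrocarbon receptor and bile acid lists, and *Fmo2* gave 0.34 and *Fmo5* −0.26. Leaving out 1 liver gave between 885 and 2396 calls, with 885 without flox/flox replicate 2, 1405 without replicate 3 and 1552 without replicate 4, and 1199 without hep−/− replicate 2. It gave between 1 and 3 calls in the flavin, other oxidase and bile acid lists, between 1 and 2 in the taurine and aryl hydrocarbon receptor lists, and between 5 and 11 in the male-biased list. With GENCODE exonic lengths, added after seeing the data, the difference in the share of *Fmo1* was −1.16 percentage points, of *Fmo2* 4.28, of *Fmo4* 0.51 and of *Fmo5* −3.62. With at least 10 counts in every library, 3 female-biased genes were called. With limma on log2(FPKM + 1), 4 other oxidases were called, and with either pseudocount 2 taurine and 4 bile acid genes were. Genes higher in livers labelled hep−/− were 50.5% of calls by edgeR and 24.5% and 23.1% by limma with pseudocounts 1 and 0.1, where the median of the genes tested in both fits shifted from that of edgeR by −0.09 and −0.13 on the log2 scale. The cause was not tested. Each member had at least 331 counts in every liver, and the common coefficient of variation within groups was 0.301.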
